A study of Mus musculus with 46 samples.

Results

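Cytochrome P450 genes of the Cyp2b and Cyp2a subfamilies were described together with the receptors CAR (constitutive androstane receptor, Nr1i3) and PXR (pregnane X receptor, Nr1i2) in liver of mice fed a lipid-rich diet (LD) or a carbohydrate-rich diet (CD). The 8 members, out of 25494 annotated genes in the RNA-seq table, were Cyp2b9, Cyp2b10, Cyp2b13, Cyp2a4, Cyp2a5, Cyp2a22, Nr1i3 and Nr1i2. They were named as a list after the RNA-seq difference between the diets had been seen in these same mice. Their transcript levels on LD and CD are therefore given as a description with no p-value, and nothing is read from their calls. ChIP-seq peak heights, acetylated regions, promoter contacts and the covariation of members within a diet played no part in that choice.

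CAR and PXR are nuclear receptors of the hepatocyte that respond to drugs, bile acids and other foreign or endogenous compounds and bind DNA as heterodimers with the retinoid X receptor. Their known targets are genes of drug and steroid clearance, among them the Cyp2b and Cyp3a enzymes, conjugating enzymes and efflux pumps. Several Cyp2b and Cyp2a genes of the mouse are also known for higher expression in females than in males, under the control of the growth hormone pattern.

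All mice were male C57BL/6, arrived at 5 weeks of age, were acclimated for 1 week on standard chow and then ate LD (60% of energy from lipid, labelled high fat diet) or CD (70% of energy from carbohydrate, labelled low fat diet) for 20 weeks. No allele or drug was introduced in any group, and a CD mouse is a control on purified diet rather than on chow. RNA-seq covered 5 mice on each diet, ChIP-seq covered H3K27ac in 3 and 3 livers, Hnf4α in 2 and 2 and C/EBPα in 2 and 2, and promoter capture Hi-C (PCHi-C) was deposited as 1 pooled list of interactions a diet made from 2 livers each. The labels number the replicates without tying a number to the same animal across assays, and p-values therefore measure the spread between these samples. RNA-seq libraries held 31707963 to 39012699 counts, and 13494 genes passed the filter on low counts. H3K27ac region lists were longer on LD (53821 to 56987 regions) than on CD (48156 to 51608). The Hnf4α list of CD sample 1 (35143 peaks) was the shortest of the 4, against 44247 to 47992 in the others. C/EBPα lists held 38281 and 39310 peaks on LD and 41713 and 46371 on CD. Summed hepatocyte markers (8 genes, Alb among them) ran from 93217 to 106966 CPM (counts scaled to library size) on LD and from 102370 to 113947 on CD, most of it Alb, and 3 of the 8 were called higher on CD and 0 higher on LD (Cps1, log2 -1.33, Tat, log2 -0.88, and Serpina1a, log2 -0.49). Livers are mixtures, so fewer cells of a type and less RNA per cell cannot be told apart.

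The upstream DNA of Cyp2b10 carried the largest called differences in factor binding near any member, and 2 windows of it are shown first, each of 250 bases centred on an Hnf4α peak present in all 4 samples, mm9, plus strand. Neither window lies in a protein-coding gene. The window at -4.29 kb from the annotated start (chr7:26678260-26678509) is the one at which Hnf4α and C/EBPα peaks both differed between the diets. The window at -2.29 kb (chr7:26680258-26680507) holds a match to a direct repeat of the receptor core spaced by 4 bases (DR4, searched as AGNNCANNNNAGNNCA on both strands), the layout that CAR and PXR heterodimers are known to bind. Capitals mark that match, which reads AGGTCAGGAAAGTACA on the minus strand at bases 84 to 99 of the window.
Cyp2b10 -4.29 kb: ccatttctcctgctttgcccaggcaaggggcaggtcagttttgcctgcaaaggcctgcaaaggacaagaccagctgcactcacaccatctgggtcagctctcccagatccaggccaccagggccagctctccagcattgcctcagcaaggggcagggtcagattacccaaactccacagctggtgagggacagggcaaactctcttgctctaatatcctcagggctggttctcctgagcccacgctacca
Cyp2b10 -2.29 kb: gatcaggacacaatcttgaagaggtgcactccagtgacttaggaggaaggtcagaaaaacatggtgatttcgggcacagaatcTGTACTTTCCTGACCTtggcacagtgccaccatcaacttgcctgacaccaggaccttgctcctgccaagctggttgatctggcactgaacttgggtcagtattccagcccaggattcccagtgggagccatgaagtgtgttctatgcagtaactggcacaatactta
As background, the phenobarbital-responsive enhancer of Cyp2b10, a CAR-bound element, is known to lie in its upstream DNA. A DR4 match was present in 3.19% of 23331 Hnf4α windows of this length across the genome. The window at -4.29 kb held no match to DR4, to DR1 (AGNNCANAGNNCA, the layout that Hnf4α is known to bind, 13.8% of windows) or to a C/EBP motif (TTGCNNAA, 21.1% of windows), each searched on both strands. A missing match says only that these letters are not in the window.

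The promoters of near-identical copies are shown because their likeness decides how far reads of one gene can be told from those of its neighbour. Each line holds 250 bases before to 50 bases after the annotated start, mm9, plus strand. Capitals mark bases that differ from, or are gapped against, the partner: Cyp2b9 (chr7:26958178-26958477) is set against Cyp2b13 (chr7:26846264-26846563), and Cyp2a4 (chr7:27091961-27092260) against Cyp2a5 (chr7:27620108-27620407).
Cyp2b9: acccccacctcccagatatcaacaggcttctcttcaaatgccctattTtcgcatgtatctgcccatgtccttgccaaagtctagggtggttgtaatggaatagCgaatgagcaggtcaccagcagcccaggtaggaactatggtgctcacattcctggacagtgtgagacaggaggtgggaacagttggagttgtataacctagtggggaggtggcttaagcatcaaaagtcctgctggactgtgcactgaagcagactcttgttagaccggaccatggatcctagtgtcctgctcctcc
Cyp2b13: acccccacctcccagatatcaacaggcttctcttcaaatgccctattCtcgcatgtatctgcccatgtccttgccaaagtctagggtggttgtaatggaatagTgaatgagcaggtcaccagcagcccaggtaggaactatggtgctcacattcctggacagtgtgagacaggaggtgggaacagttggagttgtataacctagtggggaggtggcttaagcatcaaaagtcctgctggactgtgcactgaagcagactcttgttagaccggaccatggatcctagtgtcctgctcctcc
Cyp2a4: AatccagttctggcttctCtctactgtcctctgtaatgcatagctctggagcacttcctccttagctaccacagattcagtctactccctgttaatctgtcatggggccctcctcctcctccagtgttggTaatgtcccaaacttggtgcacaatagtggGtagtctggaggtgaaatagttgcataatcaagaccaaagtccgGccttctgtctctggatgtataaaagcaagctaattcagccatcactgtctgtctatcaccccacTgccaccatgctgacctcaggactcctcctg
Cyp2a5: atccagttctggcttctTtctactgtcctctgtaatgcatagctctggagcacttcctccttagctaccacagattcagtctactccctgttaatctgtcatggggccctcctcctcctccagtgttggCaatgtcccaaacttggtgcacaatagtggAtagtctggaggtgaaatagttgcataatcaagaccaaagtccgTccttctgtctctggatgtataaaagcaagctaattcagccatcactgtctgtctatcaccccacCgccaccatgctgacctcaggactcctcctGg
The Cyp2b9 and Cyp2b13 promoters were identical at 99.3% of aligned bases, with 2 mismatches in 300 bases. Cyp2a4 and Cyp2a5 promoters were identical at 98.3%, with 5 mismatches and 2 gapped bases. Cyp2b9 and Cyp2b10 were identical at 80.1%. Cyp2b9 and Cyp2b13 each held 1 DR1 match and 1 C/EBP match in this window, while Cyp2b10, Cyp2a4 and Cyp2a5 each held 1 C/EBP match and no DR1 or DR4. Across 24367 promoters of this length, 2.58% held a DR1, 1.59% a DR4 and 10.01% a C/EBP match.

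Copies also shared transcript sequence. RNA-seq reads were 76 bases long and paired, and words of that length that occur unchanged in a transcript of another gene made up 4.997% of Cyp2b9, 7.05% of Cyp2b13 and 1.55% of Cyp2b10. Cyp2a4 and Cyp2a5 shared more, 20.8% of the words of Cyp2a4 and 15.6% of those of Cyp2a5, and their transcripts were identical at 98.3% of aligned bases. In Cyp2a22, 10.3% of words recurred in Cyp2a12. In Nr1i3, 12.3% of words lay in the overlapping gene Tomm40l, which is read from the other strand, and counting was stranded. Nr1i2 shared none. By default the counting tool leaves out a read that maps equally well to several genes, so a member with many shared words can be undercounted. Misassignment of single reads between copies was not tested.

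Cyp2b9, a steroid and drug hydroxylase, was almost silent on CD and abundant on LD. Levels in TPM, which are scaled to transcript length and library size, were 116, 35.0, 232, 401 and 202 in the 5 LD mice and 0.691, 0.486, 1.81, 0.403 and 0.724 in the 5 CD mice (gene at chr7:26958428-26995679). The lowest LD mouse stood far above the highest CD mouse. LD mice themselves spread 11.7-fold from lowest to highest. Mean CPM was 229-fold higher on LD, and the fitted log2 fold change was 7.82 (SE 0.84, n = 5 and 5).

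Cyp2b13, a close copy of Cyp2b9 (transcripts identical at 91.8% of aligned bases), rested on far fewer reads. Raw counts were 34, 18, 122, 307 and 102 on LD, and the only CD mouse with reads was CD replicate 3, with 2. In TPM the LD mice stood at 0.928, 0.447, 3.79, 8.96 and 3.13 (chr7:26846514-26881215). Scaled to library size, the LD total of 583 counts was 281-fold the CD total of 2 counts, with a 95% exact counting interval of 77.5 to 2327 that leaves out the spread between mice. Cyp2b13 made up 0.795% to 2.19% of the reads of the pair on LD. The pattern over mice followed Cyp2b9, as described under covariation.

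Cyp2b10, the phenobarbital-inducible P450 that serves as the standard readout of CAR activity, was barely detected on either diet. TPM values were 0.191, 0.223, 0.279, 1.05 and 0.429 on LD, and on CD they were 0 in 3 mice, 0.0541 in one and 0.0556 in another (chr7:26682677-26711643). The gene did not pass the filter on low counts, so no model was fitted. LD libraries held 75 counts in all and CD libraries 4, a scaled ratio of 18.1 with a 95% exact counting interval of 6.78 to 68.1. LD replicate 4 alone gave 36 of the 75. The shift was thus in the direction of Cyp2b9 at a level near the limit of detection.

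Cyp2a4, a steroid hydroxylase, was low on CD and spread widely on LD. TPM was 3.67, 4.26, 26.0, 36.4 and 45.8 in LD mice, against 0.662, 0.644, 1.04, 0.645 and 0.518 in CD mice (chr7:27092211-27100107), without overlap. Mean CPM was 31.04-fold higher on LD, and the fitted log2 fold change was 4.94 (SE 0.88).

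Cyp2a22, a further P450 of the same cluster, read from the minus strand, gave TPM of 8.67, 5.69, 31.3, 43.0 and 32.0 in LD mice, against 1.36, 0.863, 3.22, 1.12 and 1.43 in CD mice (chr7:27716650-27724405). The ranges did not overlap. Mean CPM was 14.3-fold higher on LD, and the fitted log2 fold change was 3.83 (SE 0.68).

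Cyp2a5, which hydroxylates coumarin and nicotine and was the highest of the 8 members on either diet, moved little beside its near-identical copy. TPM was 628, 484, 655, 575 and 389 in LD mice, against 261, 243, 425, 419 and 430 in CD mice (chr7:27620358-27628283). LD replicate 5 lay below 3 of the CD mice. The ratio of mean CPM was 1.47 and the fitted log2 fold change 0.55 (SE 0.20). Within a mouse, Cyp2a4 took 0.582%, 0.873%, 3.81%, 5.96% and 10.5% of the reads of Cyp2a4 and Cyp2a5 together on LD, and 0.1202% to 0.264% on CD. In LD replicate 5, the highest Cyp2a4 of any mouse came with the lowest Cyp2a5 of the LD mice. The share was therefore not constant across LD mice. When the counts of the Cyp2a copies were summed, the log2 fold change was 0.68 (SE 0.19), since most of the sum is Cyp2a5.

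CAR itself was moderately higher on LD. Nr1i3 TPM was 168, 145, 163, 136 and 129 in LD mice, against 65.5, 62.6, 108, 104 and 104 in CD mice (chr1:173144101-173148976). The lowest LD mouse was above the highest CD mouse, and CD replicates 1 and 2 were the lowest of all. The ratio of mean CPM was 1.59 and the log2 fold change 0.67 (SE 0.16). PXR was nearly level: Nr1i2 TPM was 46.3, 43.2, 45.0, 44.4 and 44.9 in LD mice, against 34.2, 35.5, 46.3, 42.4 and 35.9 in CD mice (chr16:38248435-38294910). Its ranges overlapped, and the log2 fold change was 0.13 (SE 0.079).

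**Figure D1:**
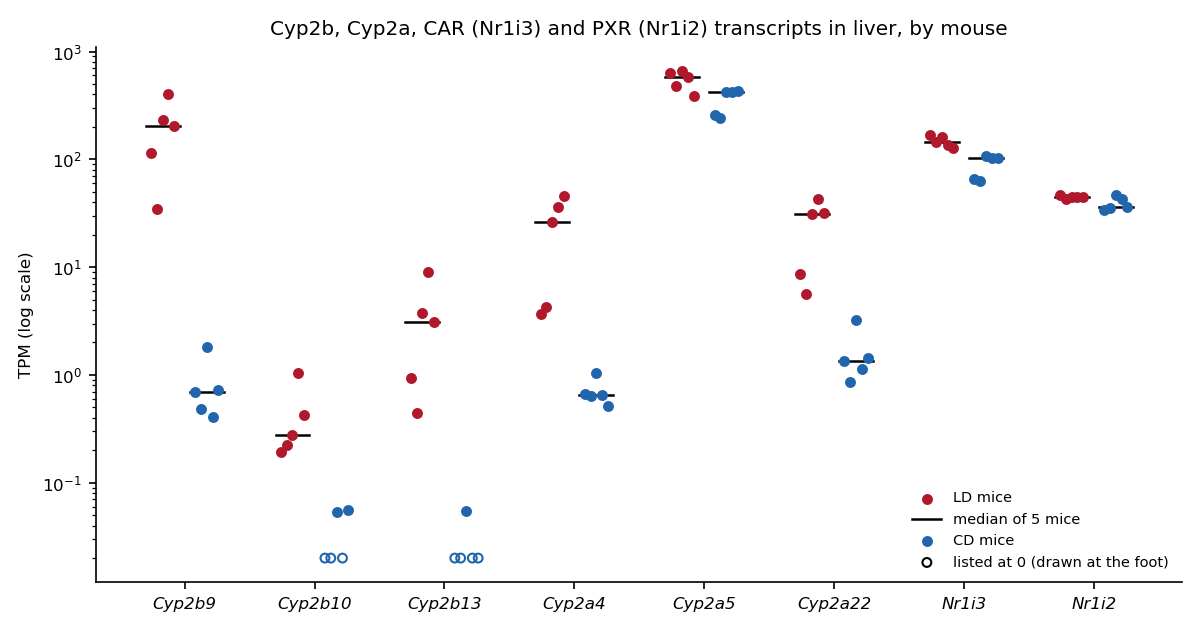
Transcript level of each member by mouse, TPM on a log axis, LD mice in red and CD mice in blue, with a bar at the median of 5 mice and open circles at the foot for values listed at 0. Cyp2b9 runs from 35.0 to 401 on LD and from 0.403 to 1.81 on CD, while Nr1i2 overlaps between the diets.

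Ordered by mean TPM on LD, Cyp2a5 (546 ± 109, SD, n = 5) stood first, followed by Cyp2b9 (197 ± 137), Nr1i3 (148 ± 17.1), Nr1i2 (44.8 ± 1.15), Cyp2a22 (24.1 ± 16.2), Cyp2a4 (23.2 ± 18.9), Cyp2b13 (3.45 ± 3.39) and Cyp2b10 (0.434 ± 0.356). On LD the mice spread so widely that most neighbours in this order overlapped. The LD range of Cyp2b9 overlapped those of Cyp2a5, Nr1i3, Nr1i2, Cyp2a22 and Cyp2a4, that of Cyp2a4 overlapped those of Nr1i2, Cyp2a22 and Cyp2b13, and that of Cyp2b13 also overlapped those of Cyp2a22 and Cyp2b10. Cyp2a5, Nr1i3 and Nr1i2 did not overlap one another on LD. On CD the order was Cyp2a5 (356 ± 95.1), Nr1i3 (88.6 ± 22.4), Nr1i2 (38.9 ± 5.23), Cyp2a22 (1.60 ± 0.931), Cyp2b9 (0.823 ± 0.569), Cyp2a4 (0.701 ± 0.196), Cyp2b10 (0.0219 ± 0.0301) and Cyp2b13 (0.0108 ± 0.0242). Cyp2a5, Nr1i3 and Nr1i2 did not overlap with their neighbours on CD, while the ranges of Cyp2a22, Cyp2b9 and Cyp2a4 did. The ranges of Cyp2b10 and Cyp2b13, at or near 0, overlapped as well. Of the 7 members that passed the filter, 5 were past the thresholds of the fit across all genes (Cyp2b9, Cyp2b13, Cyp2a4, Cyp2a22 and Nr1i3), each higher on LD, against 13.8% of all genes tested that were called higher on LD and 11.1% called higher on CD. In 6 of 8 members every LD mouse was above every CD mouse, against 10.2% of genes tested. Since the members were chosen on this contrast, nothing is read from those counts.

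The spread within a diet was not used to choose the members, and here the genes fell apart into different patterns. Correlations were computed over 10 mice on log2 CPM as deviations from the diet mean, for the 21 pairs of the 7 members that passed the filter, with exact two-sided permutation within diets and Benjamini-Hochberg adjustment over the 21 pairs. Cyp2b9 and Cyp2a22, which share no 76-base word, rose and fell together (r = 0.942, exact permutation p = 0.000347, adjusted 0.00729; rho = 0.952, exact p = 0.000278, adjusted 0.00583). The relation was present among LD mice (r = 0.938) and among CD mice (r = 0.956), and without the 2 mice farthest from the median it was 0.889. Those 2 mice were LD replicates 2 and 4. Among CD mice, replicate 3 stood high for both genes (1.87 CPM, next 0.765, and 3.94 CPM, next 1.78), so the CD value rests in part on it. Both genes, and Cyp2b13 with them, ranked the LD mice by CPM in the same order, with replicate 4 highest, then 3, 5, 1 and 2 (in TPM, Cyp2a22 has replicate 5 just above replicate 3).

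Cyp2b13 had r = 0.920 with Cyp2b9 and 0.941 with Cyp2a22 (rho 0.828 and 0.902), and r = 0.965 and 0.978 among the LD mice alone. On CD, where 4 of 5 mice had no reads, these values rest on 1 mouse with 2 counts, and the gene passed the filter on low counts through LD. They are therefore given as a description, although both are among the 4 of 21 pairs that passed the adjustment. Cyp2a4 was close to the threshold with Cyp2a22 (r = 0.896, exact permutation p = 0.0126, adjusted 0.0528; rho = 0.867, exact p = 0.0140, adjusted 0.0586) and with Cyp2b9 (r = 0.755, adjusted exact permutation p = 0.060; rho = 0.770, adjusted 0.0805) and did not pass.

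CAR varied with Cyp2a5 and not measurably with Cyp2b9. For Cyp2a5 and Nr1i3 r was 0.940 (exact permutation p = 0.00222, adjusted 0.0117; rho = 0.879, exact p = 0.00361, adjusted 0.0379), with 0.906 among LD mice and 0.998 among CD mice. CD mice fell into a low pair (replicates 1 and 2) and a high group of 3 for both genes, so the CD value rests on that gap. Without the 2 mice farthest from the median, r was 0.893 (exact permutation p = 0.0556). For Cyp2b9 and Nr1i3 r was 0.112 (exact permutation p = 0.7096, adjusted 0.844; rho = 0.0545, exact p = 0.887, adjusted 0.890), and for Cyp2a22 and Nr1i3 it was 0.0935 (exact permutation p = 0.743, adjusted 0.844; rho = 0.0788, exact p = 0.811, adjusted 0.890). With 10 mice, a weak relation would not be detected. Cyp2a4 and Cyp2a5, the copies with the most shared sequence, had r = -0.155 (exact permutation p = 0.763, adjusted 0.844; rho = -0.176, exact p = 0.653, adjusted 0.806). Nr1i3 and Nr1i2 had r = 0.718 (exact permutation p = 0.0779, adjusted 0.182; rho = 0.673, exact p = 0.0951, adjusted 0.2496). With the 2 farthest mice removed, 0 of 21 pairs passed the adjustment, in 8 mice.

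**Figure D2:**
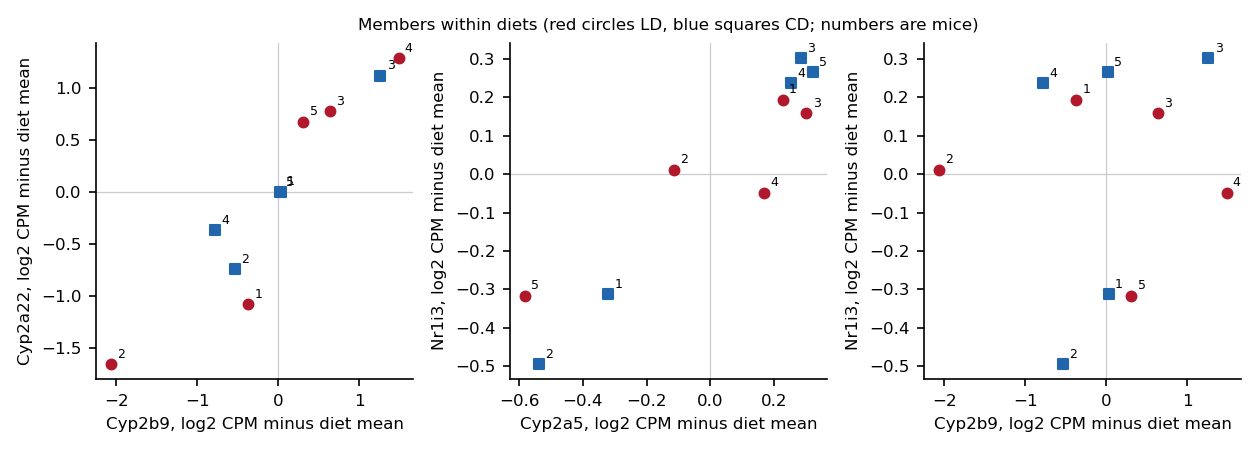
Deviation of each mouse from its diet mean in log2 CPM for Cyp2a22 against Cyp2b9, Nr1i3 against Cyp2a5 and Nr1i3 against Cyp2b9; red circles are LD mice, blue squares CD mice, and numbers are replicates. The first panels form a line (r = 0.942 and 0.940) and the last does not (r = 0.112).

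Among 7797 other genes with at least 10 CPM, those whose deviations were most like Cyp2b9 over the 10 mice included Mipep, a mitochondrial peptidase (r = 0.958), and Psmd7, a proteasome subunit (r = 0.955). For Cyp2b10 they were Zfpm1 (0.969), Cptp (0.933) and Tsr3 (0.928), and Cyp2b10 itself had 0 to 36 counts a mouse. For Cyp2a5 they were Adtrp (0.969), Acaa1a, a peroxisomal thiolase (0.963), and Chn2 (0.942). Cpox, an enzyme of haem synthesis (0.958), Npr2 (0.957) and Dock9 (0.935) were most like Nr1i3, and Pbld2 (0.945), Rtel1 (0.939) and Tbccd1 (0.933) most like Nr1i2. Each stands near the top of a ranking over all those genes in 10 mice and is a description.

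H3K27ac, an acetylation that marks active promoters and enhancers, was next measured as the share of the gene and 20 kb on either side that lay in called regions. Around Cyp2b10 this share was 3.48%, 0.870% and 5.51% in the 3 LD samples and 0 in each CD sample. The Cyp2b13 neighbourhood gave 3.75%, 0.803% and 6.69% on LD and 0 on CD. Each separation reached the smallest p that 3 against 3 allows, 0.1 by exact two-sided permutation. Cyp2b9 had 2.33%, 0 and 3.37% on LD and 0 on CD, with LD replicate 2 overlapping CD, and Cyp2a4 had 1.25%, 0 and 0.418% against 0. No called region lay within 20 kb of any of these 4 genes in any CD sample.

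The other members carried H3K27ac on both diets. Cyp2a5 had 5.84%, 1.67% and 5.43% on LD and 3.34%, 0.835% and 0.835% on CD. Cyp2a22 had 15.9%, 7.96% and 14.7% on LD and 5.03%, 4.61% and 9.63% on CD, and its region over the start was called in all 6 samples. Nr1i3 was covered widely, 70.8%, 73.0% and 71.8% on LD and 76.6%, 67.7% and 70.4% on CD, and Nr1i2 at 36.1%, 37.5% and 36.3% against 32.8%, 33.1% and 45.3%, with overlap in both. In all, 2 of 8 members had higher coverage in every LD sample and 0 in every CD sample, against 16.3% and 4.14% of 24468 genes. The count depended on the setting: it was 4 within 10 kb, 4 within 50 kb, 6 without LD replicate 2 and 4 without CD replicate 1 or CD replicate 3, so nothing is read from it against the background. The LD lists covered more of the genome in general (150 to 160 Mb against 140 to 145 Mb), whose part in the result was not tested.

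By position, acetylated regions upstream of Cyp2b10 lay between -9.48 and -7.88 kb in 3 LD samples and between -4.88 and -1.88 kb in 2 LD samples. In LD replicate 3 the nearer region ran for 3000 bases over both windows shown above, while in LD replicate 1 it ran for 1000 bases, from -4.68 to -3.68 kb, over the window at -4.29 kb and short of the one with the DR4 match. In Cyp2b13 a region at 20.1 to 22.3 kb inside the gene was called in 3 LD samples, and in Cyp2b9 a region at 0.173 to 1.77 kb was called in 2. Reads that map to several places were dropped, and only 66.7% of 50-base words around Cyp2b13 and 75.7% around Cyp2b9 occur once in the genome, against 88.0% around Cyp2b10 and 97.3% around Nr1i3. Around Cyp2a4 the share was 53.5%, so missing peaks near that gene and its copies are less certain. A word of this length is longer than a single ChIP-seq read, so for one read of a pair taken alone the unique share is lower than these values.

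Hnf4α, the nuclear receptor that maintains hepatocyte identity, had 50 loci within 20 kb of members, 20 of them with a peak in all 4 samples and 12 in a single sample. No Hnf4α peak was listed for Cyp2b9. Peak heights (tags scaled by the authors to a fixed library size) were compared with limma after each sample was centred on its median, over all loci present in all 4 samples, and called at an adjusted p under 0.05 with a fold over 1.5. Near members 2 of the 20 loci were called higher on LD and 1 higher on CD, against 3.28% and 2.79% of 23344 loci.

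At -4.29 kb of Cyp2b10 the Hnf4α heights were 48.0 and 43.8 on LD and 13.2 and 28.8 on CD, both LD samples above both CD samples. The centred log2 difference was 1.04 (SE 0.23, 95% interval 0.57 to 1.52, limma adjusted p = 0.0114). Only 2 kb closer to the gene, the peak over the DR4 match did not differ beyond its error: heights were 44.8 and 30.8 on LD against 21.0 and 42.2 on CD, a log2 difference of 0.13 (95% interval -0.35 to 0.61, limma adjusted p = 0.784). At the start of Nr1i3 the heights were 122.5 and 107.8 on LD and 45.2 and 89.8 on CD, a log2 difference of 0.66 (SE 0.16, limma adjusted p = 0.0180), again without overlap. A further peak at -9.53 kb of Nr1i3 was lower on LD without reaching a fold of 1.5 (100.2 and 101.8 against 85.5 and 201.2, log2 difference -0.57, limma adjusted p = 0.0289), with CD replicate 1 below both LD samples before centring.

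An intronic peak of Nr1i2 at 6.90 kb went the other way, with heights of 60.5 and 41.2 on LD and 47.0 and 110.2 on CD and a log2 difference of -0.72 (SE 0.20, limma adjusted p = 0.0340). CD replicate 1 lay between the LD samples before centring. No DR1 match was found in the windows of the peaks at the starts of Nr1i3, Nr1i2 and Cyp2a22 or at 21.3 kb of Cyp2b13. The same held for the Cyp2b10 windows at -4.29 and -2.29 kb, and 13.8% of Hnf4α windows across the genome hold a match. The 250 bases under the Nr1i2 peak at 6.90 kb (chr16:38287886-38288135, mm9, minus strand) held a DR1 match, in capitals, and are shown because that layout is the one Hnf4α binds.
Nr1i2 6.90 kb: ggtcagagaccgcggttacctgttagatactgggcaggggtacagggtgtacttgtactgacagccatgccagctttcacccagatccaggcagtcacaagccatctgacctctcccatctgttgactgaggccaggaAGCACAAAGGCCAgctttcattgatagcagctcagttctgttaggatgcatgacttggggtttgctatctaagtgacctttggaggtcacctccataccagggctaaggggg
The peak at the start of Nr1i2 did not pass the test (118.8 and 100.8 on LD, 74.5 and 128.5 on CD, log2 difference -0.03, 95% interval -0.35 to 0.29). Neither did the peak at the start of Cyp2a22 (102.8 and 87.5 against 55.8 and 111.5, log2 difference 0.07, 95% interval -0.26 to 0.41). In Cyp2b13 the strong intronic peak at 21.3 kb, inside the region acetylated on LD alone, stood at 103.0 and 91.5 on LD and 67 and 139.5 on CD (log2 difference -0.19, 95% interval -0.50 to 0.13).

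C/EBPα, a liver transcription factor of metabolic genes, had 44 loci near members, 11 in all 4 samples and 19 in a single sample. By the same test 3 of the 11 were called higher on LD and 0 higher on CD by limma (3 were lower on LD at an unadjusted p under 0.05, and edgeR on total tags also called 0 higher on CD), against 8.94% and 8.99% of 13813 loci. At -4.27 kb of Cyp2b10 the heights were 40.5 and 39.5 on LD and 21.0 and 14.0 on CD, a log2 difference of 1.53 (SE 0.29, 95% interval 0.95 to 2.11, limma adjusted p = 3.35e-05). Its centre lay 26.5 bases from that of the Hnf4α peak. At the start of Cyp2b10 a low C/EBPα peak had 11 and 14.5 on LD and 9 and 10 on CD, which did not pass (log2 difference 0.72, limma adjusted p = 0.1497).

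The other C/EBPα calls were weaker. At 19.3 kb from Nr1i3, in an intron of the neighbour Fcer1g, heights were 41.5 and 55.5 on LD and 44.5 and 29.0 on CD, with overlap before centring (log2 difference 0.73, SE 0.24, limma adjusted p = 0.0241). At 15.6 kb from Cyp2a5, beyond its end, they were 15.0 and 15.0 against 12.5 and 7 (log2 difference 0.99, SE 0.36, limma adjusted p = 0.0373), in DNA of which only 50.5% of 50-base words are unique. A C/EBPα peak in an intron of Nr1i2 at 8.82 kb was lower on LD without reaching a fold of 1.5 (62.5 and 68.5 against 138.5 and 101.5, log2 difference -0.55, limma adjusted p = 0.0147).

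Peaks of C/EBPα listed in both LD samples and no CD sample lay at -9.42 kb of Cyp2b10 (heights 18 and 21.5), -0.940 kb of Nr1i3 (23.5 and 16.5), 30.01 kb of Cyp2b13 (7.5 and 8), and 7.33 kb (17.5 and 26.0) and -0.013 kb (9.50 and 10.5) of Nr1i2. That is 5 of 44 loci, and 0 were listed in both CD samples alone, against 5.18% and 1.77% of 97466 loci. The centre of the peak at -9.42 kb lay inside an acetylated region in LD replicate 1, whereas the regions of LD replicates 2 and 3 began closer to the gene, at -8.48 and -8.68 kb. For Hnf4α, 2 of 50 loci were in both LD samples alone (8.46 kb of Cyp2a5, heights 7 and 9, and -7.18 kb of Cyp2a22, heights 7.25 and 7) and 1 in both CD samples alone (12.1 kb of Nr1i2, heights 29.8 and 53.0), against 4.85% and 2.57% of 70756 loci. Presence near the detection limit of a list depends on its depth, and these peaks were not tested.

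**Figure D3:**
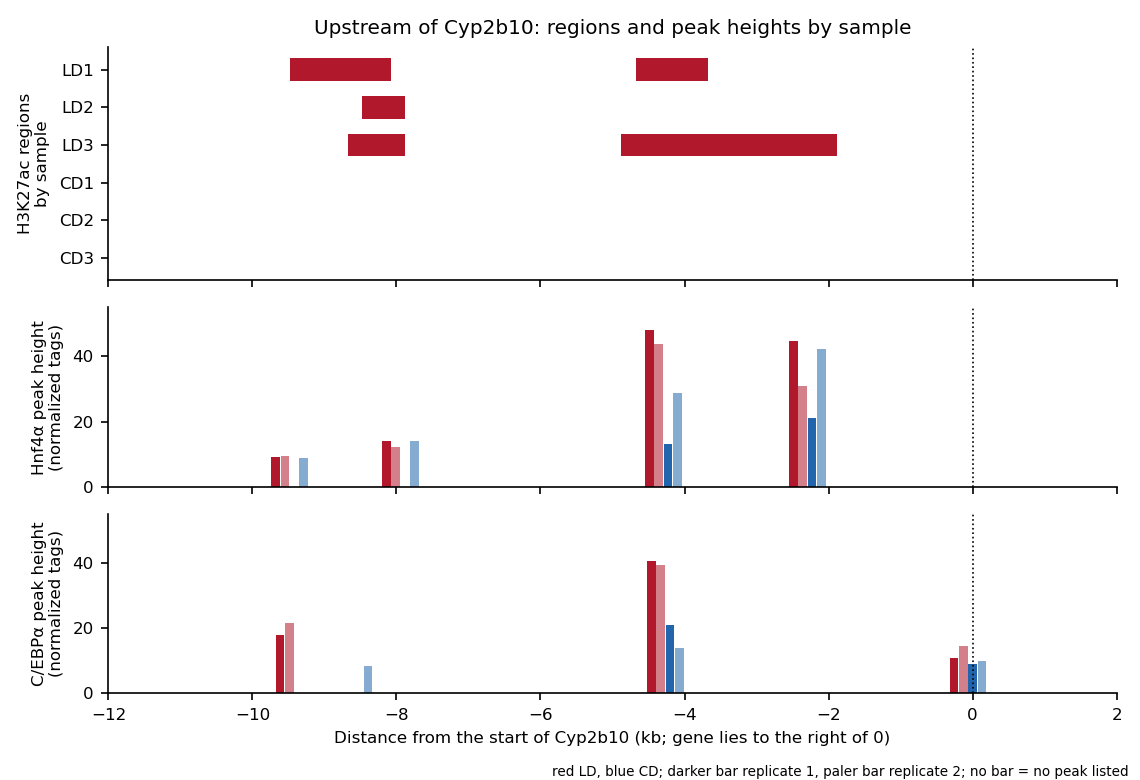
Upstream DNA of Cyp2b10 by distance from its start in kb: H3K27ac regions in each of 6 samples (top) and the heights of Hnf4α and C/EBPα peaks in normalized tags in each of 4 samples (red LD, blue CD, darker replicate 1). Acetylated regions are listed in LD samples alone, and at -4.3 kb the bars of both factors are higher on LD.

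All 6 locus calls depended on centring: without it the differences kept their direction and none passed, with 0 of 23344 Hnf4α loci called by limma in the whole genome (542 at an unadjusted p under 0.05, against 766 higher on LD and 652 on CD after centring by limma, and 944 and 531 by edgeR on total tags). Without centring the log2 differences were 1.23 for Hnf4α and 1.22 for C/EBPα at -4.3 kb of Cyp2b10 and 0.85 for Hnf4α at the start of Nr1i3, and the other 3 were 0.42 (Nr1i3 at 19.3 kb), 0.68 (Cyp2a5) and -0.53 (Nr1i2). Before centring, the median over loci of the log2 difference, LD over CD, was 0.15 for Hnf4α and -0.41 for C/EBPα. The calls of both factors at -4.3 kb of Cyp2b10 held with each sample left out in turn, while the other 4 were each lost without LD replicate 2 and without CD replicate 2. Each such fit has 1 sample in an arm, which is assumed to vary like the other group, so it says little about stability. The Hnf4α call at Nr1i3 held without CD replicate 1, the sample with the short list.

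**Figure D4:**
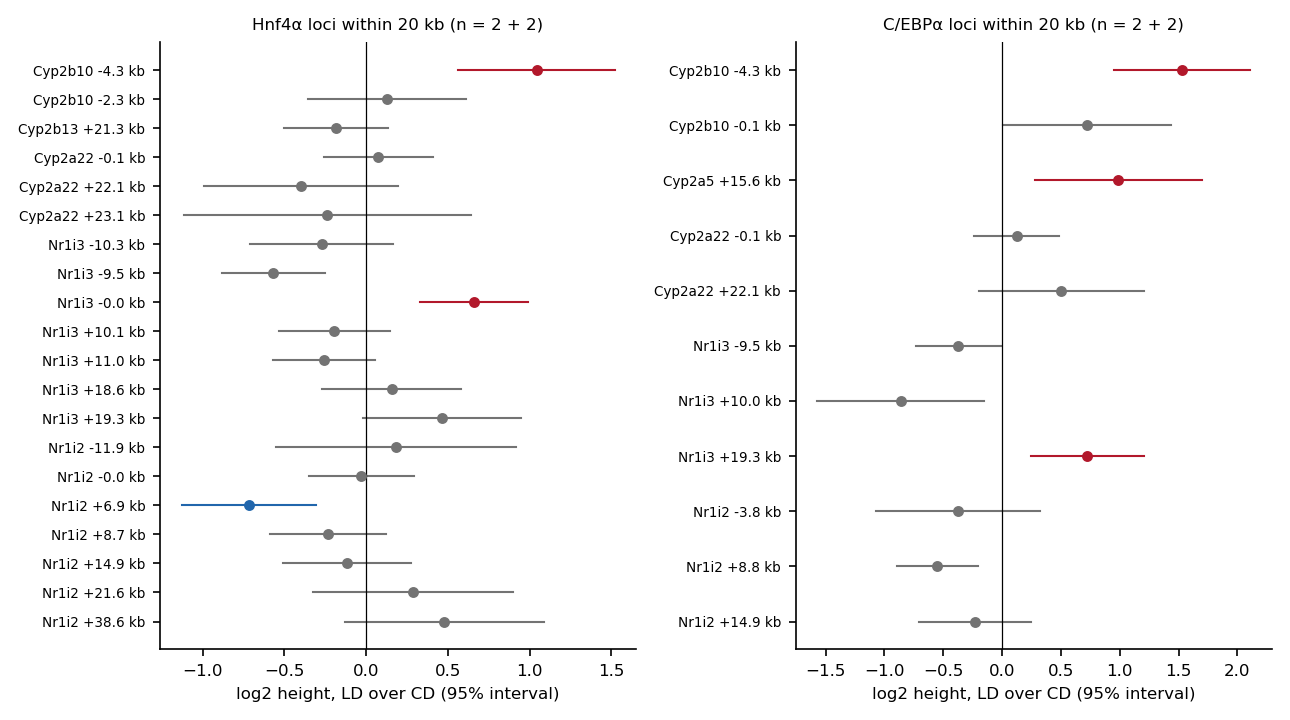
Log2 difference in peak height, LD over CD, at every locus near a member with a peak in all 4 samples, with 95% intervals from limma, for Hnf4α (20 loci) and C/EBPα (11 loci); red and blue mark calls higher on LD and CD. The loci at -4.3 kb of Cyp2b10 lie highest in both panels, at 1.04 and 1.53.

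PCHi-C scores each contact of a captured promoter fragment by CHiCAGO, a background model in which a higher score means a contact less likely by chance, and contacts of at least 5 were listed. With 1 pooled list a diet there is no replicate and no test. No interaction was listed on either diet for a fragment named for Cyp2b9, Cyp2b13, Cyp2a4, Cyp2a5 or Cyp2a22, and whether those fragments were captured and mappable was not tested. Counting any interaction with an end within 20 kb of the gene, whatever promoter it was named for, Cyp2a5 had 1 on LD and 4 on CD, Cyp2b13 had 0 and 2, and Cyp2b10 had 5 and 10. By name, Cyp2b10 had 5 interactions on LD and 5 on CD, 2 of them shared (40% of each list), with scores of 5.02 to 5.80. One shared contact joined it to Nlrp4a at 542 kb (5.62 on LD, 5.55 on CD), and a contact with Cyp2b19 at 862 kb was listed on LD alone (5.35). All 10 lie just above the minimum.

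Nr1i3 had 20 interactions on LD and 22 on CD, with all 20 LD contacts also on CD (90.9% of the CD list). The captured fragment also holds the start of Tomm40l. Contacts with Dusp12 (6.83) and Fcer1g (5.22) were on CD alone. Nr1i2 had 10 on LD and 8 on CD, with 7 shared (70% and 87.5%), the strongest with Timmdc1 at -231 kb (18.5 on LD, 12.8 on CD). Over the whole lists, 69.5% of 151203 LD contacts and 70.1% of 149798 CD contacts were shared.

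Known targets of CAR and PXR other than the members were counted next. Their list was set with earlier results of these data known, so its counts are a description. Of 40 listed genes 38 were tested, and by edgeR's quasi-likelihood test 16 were called higher on LD, 3 higher on CD and 19 were not called, against 13.8% and 11.1% of all genes tested. The median log2 fold change was 0.22, against -0.0019 over all genes. The genes named by fold change among those higher on LD included 3 glutathione transferases, Gsta1 (7.81 ± 5.08 CPM on LD, 0.195 ± 0.139 on CD, SD, n = 5 each, log2 5.27, SE 0.67, edgeR adjusted p = 0.000517), Gstm3 (log2 2.23, edgeR adjusted p = 0.0140) and Gsta2 (log2 1.29, edgeR adjusted p = 0.00154). Abcb1a, the drug efflux pump P-glycoprotein, rose from 3.91 ± 1.15 to 10.8 ± 1.68 CPM (log2 1.47, edgeR adjusted p = 8.64e-05), and Cyp3a59 rose by 1.59 on the log2 scale (edgeR adjusted p = 0.000466).

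In contrast, Ces2a, a carboxylesterase (log2 -0.97, edgeR adjusted p = 0.000384), Cyp1a2 (log2 -0.90, edgeR adjusted p = 0.000107) and Cyp2c29 (log2 -0.87, edgeR adjusted p = 0.00495) were higher on CD. The most studied PXR target, Cyp3a11, was at 1462 ± 451 CPM on LD and 1306 ± 278 on CD, a log2 difference of 0.16 (SE 0.21, edgeR adjusted p = 0.616), and Por, the electron donor of all microsomal P450s, at 148 ± 36.2 and 141 ± 55.7 (log2 0.07, edgeR adjusted p = 0.881). Both genes were named after their values were seen, as reference points. The number called higher on CD was sensitive to the mice: it was 8 without LD replicate 1 and 5 without LD replicate 5.

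Of 22 partners, cofactors and regulators of the receptors, 3 were called higher on LD and 8 higher on CD, with a median log2 of -0.17. The share higher on LD is near the 13.8% of all genes, and 11.1% of all genes were higher on CD. By limma on log2(TPM + 1) the partners called were 4 in each direction, and Foxo1 lost its call. Egfr, the growth factor receptor whose signal is known to hold CAR inactive in the cytoplasm, fell from 895 ± 173 CPM on CD to 165 ± 91.5 on LD (log2 -2.44, SE 0.39, edgeR adjusted p = 0.0020). The coactivators Ppargc1a (log2 -0.73, edgeR adjusted p = 0.000701) and Ncoa2 (log2 -0.50, edgeR adjusted p = 0.000592) and the transcription factor Foxo1 (log2 -0.43, edgeR adjusted p = 0.0152) were also lower on LD. Rxrg, a retinoid X receptor (log2 0.46, edgeR adjusted p = 0.00708), the chaperone Hsp90aa1 (log2 0.41, edgeR adjusted p = 0.0182) and Ppara (log2 0.34, edgeR adjusted p = 0.0160) were higher. The main partner Rxra was at 298 ± 24.4 CPM on LD and 338 ± 40.2 on CD (log2 -0.18, edgeR adjusted p = 0.15).

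Of 7 other genes in the Cyp2 cluster, Cyp2b19, Cyp2b23 and Cyp2t4 had no counts in any mouse, and 4 were tested. Cyp2a12, which shares words with Cyp2a22, was slightly higher on LD (558 ± 70.3 against 451 ± 56.8 CPM, log2 0.31, edgeR adjusted p = 0.0432), and Cyp2g1 was higher on CD at under 1 CPM (log2 -1.36, edgeR adjusted p = 0.0433). Neither call held with each mouse left out in turn. Cyp2f2 (log2 -0.30) and Cyp2s1 (log2 -0.43) did not pass.

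Because several members are known as female-predominant genes, lists of sex-biased liver genes were counted in these male mice. Of 22 male-biased genes tested, 16 were called higher on CD and 1 higher on LD, against 11.1% and 13.8% of all genes, with a median log2 of -1.22. Hsd3b5, a steroid dehydrogenase, fell from 407 ± 32.1 CPM on CD to 9.92 ± 13.3 on LD (log2 -5.34, SE 1.21, edgeR adjusted p = 0.0126). Cyp4a12b (log2 -3.63, edgeR adjusted p = 0.00261), Ugt2b38 (log2 -2.98, edgeR adjusted p = 0.000303), Selenbp2 (log2 -1.51, edgeR adjusted p = 0.00962) and Elovl3 (log2 -1.36, edgeR adjusted p = 0.000234) were likewise higher on CD. The exception was Gstp2 (log2 0.79, edgeR adjusted p = 0.0340), at 1.43 ± 0.380 CPM on LD.

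Female-biased genes were called in both directions. Of 21, 14 were tested, 4 were called higher on LD and 2 higher on CD, against 13.8% and 11.1% of all genes, with a median log2 of 0.47. Hao2, an oxidase of hydroxy acids (log2 3.91, edgeR adjusted p = 0.00473), Vldlr (log2 1.11, edgeR adjusted p = 0.0116), Abcd2 (log2 0.87, edgeR adjusted p = 0.000124) and Trim24 (log2 0.55, edgeR adjusted p = 0.00552) were higher on LD. Cyp2c69 (log2 -5.15, edgeR adjusted p = 7.15e-06) and Cyp2c40 (log2 -4.00, edgeR adjusted p = 0.000314) were higher on CD. All the gene lists, like the members, were set with earlier results of these data known.

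**Figure D5:**
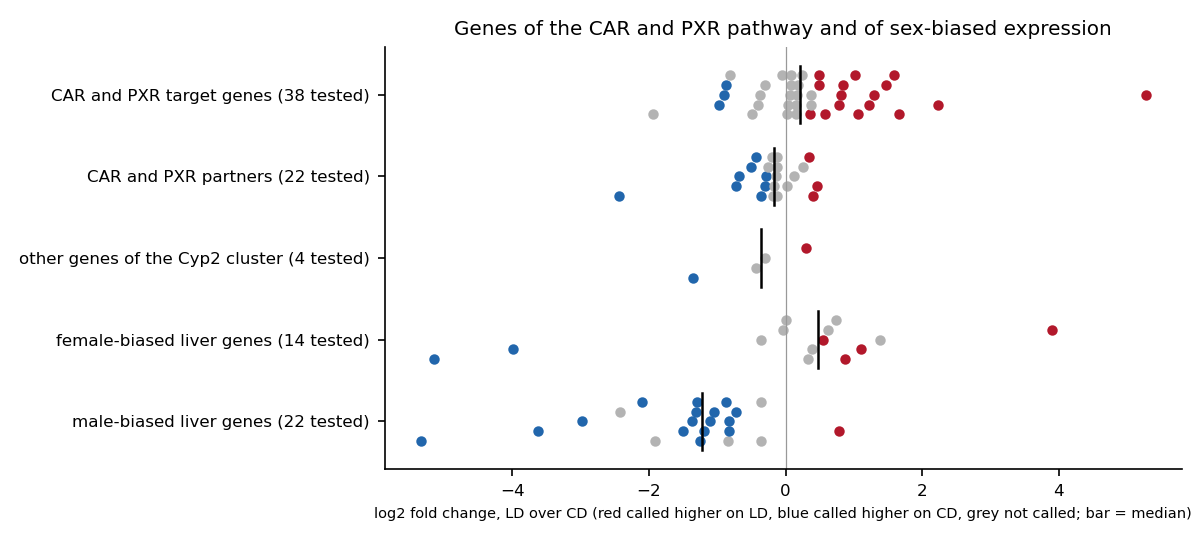
Log2 fold change, LD over CD, of every tested gene in the lists of CAR and PXR targets, partners, other Cyp2 cluster genes and sex-biased genes; red is called higher on LD, blue higher on CD, grey not called, and the bar is the list median. Target genes lie on both sides of 0 with a median of 0.22, and male-biased genes lie almost all to the left with a median of -1.22.

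Markers of other cell types were summed beside the members. Macrophage sums overlapped (335 to 1012 CPM on LD, 326 to 630 on CD), with 2 of 8 markers, Cd68 and Trem2, called higher on LD. Stellate sums overlapped too (492 to 787 against 540.3 to 638), with 2 of 7 called higher on LD, Col1a1 (log2 1.60, edgeR adjusted p = 0.000841) and Dcn (log2 0.38, edgeR adjusted p = 0.0159). Of 7 endothelial markers 1 was called, Lyve1 (log2 0.90, edgeR adjusted p = 0.0145), higher on LD. Lymphocyte sums were 3.57 to 8.55 CPM on LD and 3.05 to 4.25 on CD, and 1 of 6 tested, Cd8a, was called higher on LD (log2 2.04, edgeR adjusted p = 0.0237). Cholangiocyte sums were 48.3 to 124 against 22.9 to 36.6, mostly through Spp1. Adipocyte markers summed to 4.08 to 42.0 CPM on LD and 0.0953 to 1.34 on CD through Cfd, while Lep and Plin1 were at 0 in every mouse. Pericentral hepatocyte markers, from the zone where CAR targets are known to be expressed, overlapped in sum (6162 to 11620 CPM on LD, 7462 to 10618 on CD), most of it Cyp2e1. Within that list 2 of 8 were called higher on LD, Rhbg (log2 1.33, edgeR adjusted p = 0.00151, without overlap between the diets) and Glul (log2 0.40, edgeR adjusted p = 0.0313). The part of these differences in the values of the members was not tested.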

How the data were processed

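RNA-seq, ChIP-seq and PCHi-C of mouse liver were analysed from the deposited files. For RNA-seq the authors aligned 76-base paired-end reads with STAR 2.5 and deposited whole-number counts per gene, made with strand-specific featureCounts 1.5.0-p1, and TPM; the build was mm9. The authors called Hnf4α and C/EBPα peaks with HOMER on uniquely aligned, deduplicated reads (Bowtie 0.12.8, Picard 1.110) and deposited each peak's height as a signal of normalized tags together with a ratio, the peak's fold over its input. H3K27ac regions came from SICER (200-base windows, FDR 0.001) with no read values used. The authors deposited a CHiCAGO score for each interaction, with replicates pooled. Columns with the authors' own diet comparison and the domain files were not used. The TPM column of 1 CD mouse carries no matching replicate number and was used as a member of the CD group; 0 other sample columns were left unused.

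The members and gene lists were chosen with earlier results of these data known. Counts were tested with edgeR 4.0.16 (quasi-likelihood, TMM, filterByExpr, Benjamini-Hochberg) and called at an adjusted p under 0.05 with a fold over 1.2. CPM are TMM-scaled. Peaks overlapping between samples were merged into loci, and heights were compared with limma 3.58.1. Exact permutation tests of correlations were run in R 4.3.3 and those of H3K27ac coverage with NumPy 2.4.6. DESeq2 1.42.0 served as an alternative. The steps were tested on simulated data. Named genes were all 8 members, up to 5 called genes in each direction of a list by fold change with at least 1 CPM in a diet, the 3 genes most like Cyp2b9, Cyp2b10, Cyp2a5, Nr1i3 and Nr1i2 within diets, and loci that were called, present on 1 diet only or highest for a member. Totals of 31707963 to 39012699 counts set the counting precision; intervals on counts cover counting error only. Replicate numbers did not pair the mice. Sequences and shared words were read from the NCBIM37 genome and its GENCODE annotation; protein sequences were not used here. A few genes that the rule would name are not reported here.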

Additional observations from a re-analysis of the deposited data

Results flagged for a closer look

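Values far from the rest of their diet group were looked for with Dixon's test in 104 groups of 5 mice; chance alone marks about 1 in 20 such groups. Among CD mice, replicate 3 stood high for Cyp2b9 (1.87 CPM, next 0.765), Cyp2a22 (3.94 CPM, next 1.78), Cyp2b13 (0.0559 CPM, which is 2 counts, the others 0) and Abcb1a (5.92 CPM, next 3.59). Among LD mice, replicate 4 stood high for Cyp2b10 (1.09 CPM, next 0.391), for Hao2, a female-biased gene (16.7 CPM, next 4.56), and for Tsr3, a gene named for its likeness to Cyp2b10 (14.6 CPM, next 12.1). LD replicate 5 stood low for Npr2, named for its likeness to Nr1i3 (17.5 CPM, next 25.3). Tsr3 and Npr2 were picked for following a member within diets. For them, and for Cyp2b13 on CD, where 1 mouse alone had reads, the share of 1 in 20 does not apply. Replicate 4 was also the highest LD mouse for Cyp2b9 and Cyp2b13, and CD replicate 3 the highest CD mouse for Cyp2a4 (0.978 CPM). The cause of these values was not tested.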

How the results depend on the processing

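Of 71 alternative values of the main counts, 56 were within 1.5 times the count reported and 15 moved; of 1077 others, 968 kept their call or size, 36 lost significance, 73 moved and 0 reversed. For Hnf4α loci near members the count of 3 became 0 without centring and 1 to 4 with a sample left out; for C/EBPα loci the 3 became 0 without centring, 5 within 50 kb and 1 to 3 with a sample left out. Across the genome C/EBPα calls, 1235 higher on LD and 1242 on CD, split as 121 and 342 without centring and as 1493 and 811 by edgeR on total tags, an alternative chosen after seeing the data, as was the count of unique genome words. Members with higher H3K27ac coverage in every LD sample numbered 4 within 10 kb, 4 within 50 kb and 2 to 6 with a sample left out (6 without LD replicate 2, 4 without CD replicate 1 or 3) against 2. PCHi-C interactions of members fell from 70 to 32 at a score of 7 and to 21 at 10. Within-diet pairs went from 4 to 0 without the 2 farthest mice. With a replicate block the counts were 3173 genes called (3357 without), 20 CAR and PXR targets (19 without), 3 Hnf4α and 3 C/EBPα loci; same-numbered RNA-seq mice correlated at -0.08 to 0.19 and 1 of 5 LD mice was closest to its own number, so the numbers do not pair. The block also removed the Cyp2a12, Cyp2g1 and Gstp2 calls. Target genes called higher on CD were 7 by DESeq2 against 3, and genes called higher on CD were 739 by limma on log2(TPM + 1), with 2226 higher on LD, against 1498 and 1859. The fitted log2 change of Cyp2b13 ran from 1.80 (log2(TPM + 1)) to 9.90 (without CD replicate 3) and is no bound. Depth limits Cyp2b10 and Cyp2b13 on CD, where no mouse had more than 2 counts of either gene. The causes were not tested.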
